A study of Mus musculus with 12 samples.

Results

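The nuclear genes of the mitochondrial respiratory chain and ATP synthase were followed in mouse hippocampus after an acute stress. They were taken by name from the deposited RNA tables: every gene starting with Nduf, Uqcr or Atp5, every Cox gene numbered 4 to 8, and Sdha, Sdhb, Sdhc and Sdhd. This rule found 92 genes among 23953, and it used no measured value. The stress mice were 6 male C57BL/6 mice that were restrained for 30 min in a conical vial and then kept alone in a clean cage for 1 h before they were killed. The control mice were 5 males of the same strain that were not restrained and were taken for dissection when the restraint of the others began. Both groups received brief isoflurane. The protocol gives the age as 7 weeks, while the age label of every sample is postnatal day 28. Hippocampal DNA and RNA were pooled from up to 2 mice. This gave 3 stress and 3 control libraries of DNA enriched for 5-hydroxymethylcytosine (5hmC), an oxidised form of the DNA methylation mark 5-methylcytosine, and RNA libraries from the same pools. For 5hmC a list of enriched regions (peaks) was used for each library. For RNA 1 table per group was used, with FPKM (fragments scaled for transcript length and for the number of mapped fragments), so a difference in RNA has no replicate error and no test.

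The respiratory chain sits in the inner mitochondrial membrane. Complex I (NADH dehydrogenase) and complex II (succinate dehydrogenase) pass electrons to ubiquinone, complex III (cytochrome bc1) passes them on to cytochrome c, and complex IV (cytochrome c oxidase) gives them to oxygen. Complexes I, III and IV pump protons, and ATP synthase uses the returning protons to make ATP. A few subunits of these complexes are encoded in mitochondrial DNA, and the genes described here supply the nuclear ones, on which neurons depend because most of their ATP comes from oxidative phosphorylation. In brain, 5hmC is abundant and lies mostly in gene bodies.

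The 92 genes comprised 7 catalytic core subunits, 29 accessory subunits and 7 assembly factors of complex I, 4 subunits of complex II and 8 of complex III. Complex IV had 11 common subunits, with Ndufa4 counted here, and 8 forms known from other tissues or states. ATP synthase had 5 subunits of the F1 head and central stalk and 10 of the membrane part and peripheral stalk. Atp5s, Atp5sl and Cox7a2l matched the name rule without being subunits of these complexes in the usual sense: Atp5s is known as a coupling factor and Cox7a2l as a supercomplex assembly factor.

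Most of the genes were abundant. A mean of at least 1 FPKM over the 2 tables was reached by 83 of the 92, against 11071 of all 23953 genes, and the median of those 83 was 37.7 FPKM in stress and 34.8 FPKM in control hippocampus. Over all genes passing the same filter the median was 5.60 FPKM in stress and 5.23 FPKM in control. Together the 92 genes summed to 4213 FPKM in stress and 4113 FPKM in control tissue. This is 2.77% of all FPKM in stress and 2.90% in control. The FPKM of many short transcripts lay above its own deposited interval, as described below, so levels of short and long genes are not comparable. By the middle of that interval the 92 genes summed to 3050 in stress and 2966 in control. By FPKM, the most abundant genes in the control table belong to complexes IV, I and ATP synthase. Cox4i1, the regulatory subunit 4 of complex IV, had 269 FPKM in stress and 264 in control, and its partner Cox7c had 214 in stress and 222 in control. Atp5b, the catalytic beta subunit of F1, had 230 FPKM in stress and 211 in control, and the alpha subunit Atp5a1 had 192 in stress and 184 in control. They were followed by the complex I accessory subunit Ndufb9, with 139 FPKM in stress and 145 in control, and by Cox6b1, with 123 in stress and 140 in control. These 6 genes lay on either side of equality, 3 higher and 3 lower in stress. By the middle of the interval in control, Cox6b1 ranked 8 among the 92 genes and Atp5c1 ranked 6.

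The RNA of the respiratory chain differed little between the tables. On the log2((stress + 1)/(control + 1)) scale, which understates the change of low genes, the median of the 83 genes was 0.03, and the median of all 11071 genes was 0.08. The log2 difference lay within 0.1 of 0 for 49.4% of the 83 genes, for 38.5% of all genes and for 43.4% of genes whose mean reached 10 FPKM. This band is centred on 0 and not on either median, so these shares also depend on the scaling. They were not counted after centring. At least 1.2-fold higher in stress were 6 of the 83 genes (7.23%), where the share of all genes was 12.9%. At least 1.2-fold lower in stress were 2 of the 83 (2.41%), where the share of all genes was 5.25%. With this filter and no centring both shares lay below those of all genes. Where the mean reached 10 FPKM, 7.99% of all genes were higher and 2.18% were lower, and of the 69 respiratory chain genes at that level 4 were higher and 2 lower. When the differences were centred on the median of all genes, the split became 2 higher (2.41%, against 6.36% of all genes) and 10 lower (12.0%, against 9.18%), and the median became -0.048. The share of lower genes was then above that of all genes. The direction of the small common difference thus depends on the scaling, and so does whether these genes differ less than all genes.

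**Figure D1:**
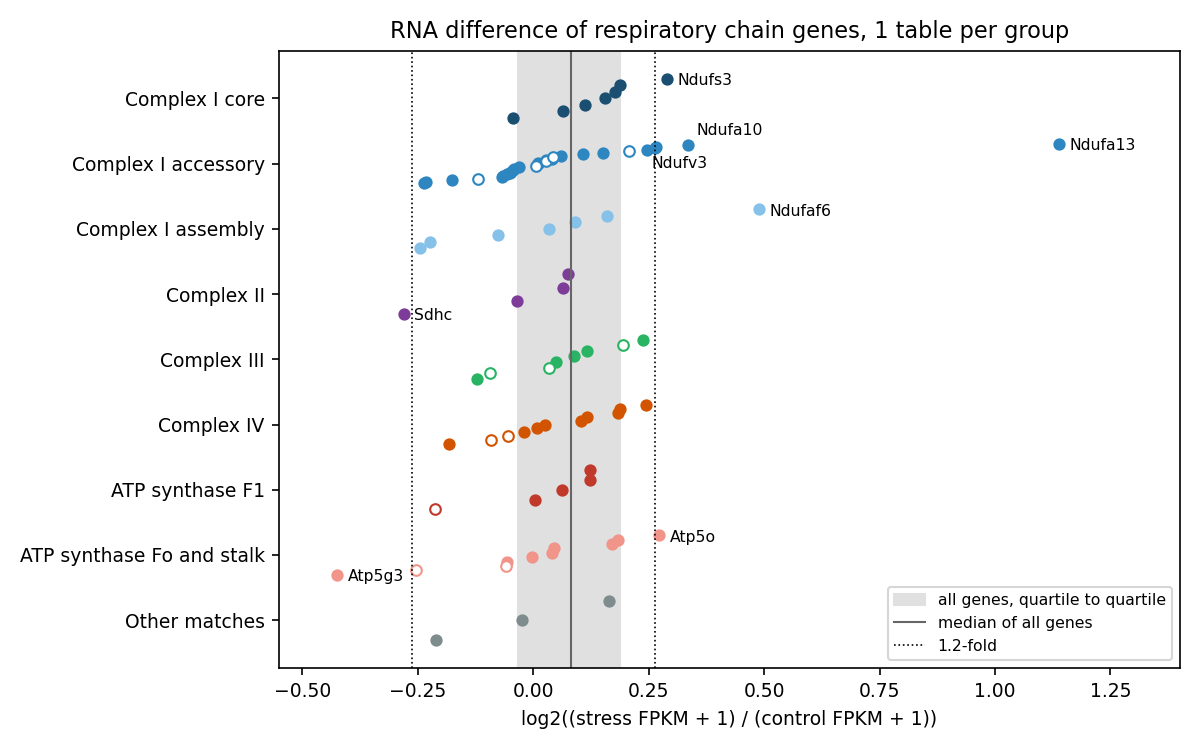
Each point is a respiratory chain gene whose mean reached 1 FPKM, placed by its log2 difference of stress over control RNA (x axis, pseudocount of 1) and by its complex (y axis). Open points are genes whose transcripts are all under 500 nt, the grey band holds all genes between the lower and the upper quartile, and dotted lines mark a 1.2-fold difference, which 6 genes pass to the right and 2 to the left.

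In complex I, the core subunits, which carry the flavin and the iron-sulfur clusters, had a median log2 difference of 0.16 over 7 genes. Ndufs1, the large iron-sulfur subunit, had 22.7 FPKM in stress and 21.7 FPKM in control tissue. Ndufv1, which binds NADH and the flavin, had 46.8 FPKM in stress and 41.9 in control. Ndufs3 was the core subunit past the threshold, with 12.9 FPKM in stress and 10.4 in control (log2 difference 0.29). The main transcript of Ndufs1 (NM_145518) had 14.2 FPKM in stress and 11.2 in control, while its other abundant transcript (NM_001160040) had 8.59 in stress and 9.98 in control. The difference of Ndufs1 is therefore 0.31 if only the most abundant transcript is used, and 0.06 for the gene.

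The accessory subunits of complex I surround the core and are needed for its assembly or stability. Their median log2 difference was 0.01 over the 28 that passed the filter, with 3 of them higher and none lower. The gene furthest from 0 among all 83 was Ndufa13, also known as GRIM-19, with 13.5 FPKM in stress and 5.58 FPKM in control (log2 difference 1.14). Ndufa10 had 58.9 FPKM in stress and 46.4 in control (0.34), and Ndufv3 had 31.7 in stress and 26.2 in control (0.27). The value of Ndufv3 rests on its short transcript of 487 nt (28.5 FPKM in stress, 23.2 in control), and the difference was 0.06 without it. Ndufb11 (0.26) and Ndufa8 (0.25) lay just inside the threshold. On the low side were Ndufb5, with a log2 difference of -0.24, and Ndufa6 with 28.9 in stress and 34.1 in control (-0.23). Ndufs4, whose loss causes a Leigh-like disease in mice, had 16.3 FPKM in stress and 16.9 in control. The assembly factors were rarer, with a median of 5.52 FPKM in stress and 5.36 in control. Of the 7, Ndufaf6 was higher, with 2.45 FPKM in stress and 1.46 in control (0.49), and the lowest were Ndufaf2 (-0.24) and Ndufaf7 (-0.22).

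Complexes II and III stayed close to 0. The flavoprotein Sdha had 60.1 FPKM in stress and 57.0 in control, and the iron-sulfur subunit Sdhb had 47.6 in stress and 45.5 in control. The membrane anchor Sdhc was the 1 gene of complex II past the threshold, with 21.8 FPKM in stress and 26.7 in control (log2 difference -0.28). In complex III none of 8 genes passed in either direction. Uqcrc1, a core protein, had 39.4 FPKM in stress and 37.0 in control, and the Rieske iron-sulfur protein Uqcrfs1 had 37.2 in stress and 40.6 in control. The highest log2 difference in complex III was that of Uqcrb (0.24).

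In complex IV none of the 11 common subunits passed in either direction. Cox5a had 65.1 FPKM in stress and 60.0 in control, and Cox6a1, the highest of the 11, had 147 in stress and 124 in control (log2 difference 0.24). The lowest was Cox6b1 (-0.18). In the F1 part of ATP synthase the lowest of 5 genes was the epsilon subunit Atp5e, with 42.1 FPKM in stress and 48.9 in control (-0.21). In the membrane part and peripheral stalk, Atp5g3 was lower, with 69.7 FPKM in stress and 94.0 in control (-0.42), and Atp5o, a stalk subunit, was higher, with 31.3 in stress and 25.7 in control (0.27). Atp5g3 is one of a set of genes that encode the same mature subunit c. The other members of that set had 15.5 FPKM in stress and 16.2 in control (Atp5g1) and 32.1 in stress and 28.4 in control (Atp5g2). The subunit f gene Atp5j2 had 26.6 FPKM in stress and 32.0 in control (-0.25). Among the further name matches, Cox7a2l had 65.7 FPKM in stress and 66.9 in control, Atp5s had 2.55 in stress and 2.16 in control, and Atp5sl had 2.65 in stress and 3.23 in control.

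The complex IV forms of other tissues or states were all under a mean of 1 FPKM. The heart and skeletal muscle forms were Cox6a2 (0.98 FPKM in stress, 0.22 in control), Cox8b (1.25 in stress, 0.42 in control) and Cox7a1 (0.72 in stress, 0.41 in control). Cox4i2, a form known from lung and from smooth muscle and pericytes, had 0.68 FPKM in stress and 0.10 in control. Of the testis forms, Cox7b2 had 0.97 FPKM in stress and 0.72 in control, Cox6b2 had 0.23 in stress and was listed at 0 in control, and Cox8c was listed at 0 in both. Ndufa4l2, which hypoxia induces, had 0.31 FPKM in stress and 0.50 in control. Of these 8 genes 5 would count as higher without the filter, and the count of higher genes is then 11 of 92 (12.0%, against 7.60% of all genes), against 6 with it. Of the striated muscle markers, Acta1 had 0.44 FPKM in stress and 0.71 in control, Myh6 0.17 in stress and 0.26 in control and Myh7 0.36 in stress and 0.48 in control, and Ckm was at 0.02 in stress and listed at 0 in control. Together with the blood markers, of which Hba-a1 and Hbb-b1 made up nearly all, they summed to 286 FPKM in stress and 296 in control (3 of 7 higher, 4 lower). The markers of endothelium and mural cells summed to 68.1 in stress and 60.7 in control (5 of 10 higher, 5 lower). The part of such cells in these low values was not tested.

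Genes of the same pathway with other names were counted in the same way. Of all genes 12.9% were higher and 5.25% lower. Of 9 measured electron carriers and related genes none was higher and 1 was lower (11.1%). This was Etfa, a subunit of the electron transfer flavoprotein, with 5.29 FPKM in stress and 7.34 in control. Etfdh, its partner oxidoreductase, had the highest difference of that list (6.71 in stress, 5.94 in control). Of 24 assembly factors 5 were higher (20.8%) and 2 lower (8.33%). Cox10, needed to make heme a, was the highest with 3.63 FPKM in stress and 2.45 in control, and Cox18 the lowest with 0.76 in stress and 1.27 in control. Of 12 regulators of mitochondrial biogenesis 2 were higher (16.7%) and none lower. These were the PGC-1 family coactivators Ppargc1b, with 4.46 FPKM in stress and 2.85 in control, and Pprc1, with 1.71 in stress and 1.21 in control, and Esrra was the lowest of the list with 3.03 in stress and 3.05 in control. Of 16 genes of pyruvate dehydrogenase and the citric acid cycle 1 was higher (6.25%) and none lower. The higher gene was Dlat, with 16.3 FPKM in stress and 13.3 in control. The lowest was Mdh2, with 34.5 in stress and 37.1 in control. The lists' median log2 differences were 0.07, 0.02, 0.16 and 0.11 in this order. Of 76 mitochondrial ribosome genes 7 were higher (9.21%) and 6 lower (7.89%), with a median of 0.03. Of 91 cytosolic ribosome genes 9 were higher (9.89%) and 5 lower (5.49%), with a median of 0.05.

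All 4 genes of a short list picked because they are known to answer glucocorticoids or neuronal activity were higher in stress. Among the 4 were Sgk1 (21.9 FPKM in stress, 7.34 in control) and Fkbp5 (10.2 in stress, 5.55 in control). They do not stand for all such genes. Markers of several cell types also differed between the tables. All 9 choroid plexus markers were lower, with a summed 65.0 FPKM in stress and 234 in control, of which Ttr made up 59.5 in stress and 217 in control. Ependymal markers were lower in 6 of 6 (7.00 FPKM in stress, 12.5 in control) and oligodendrocyte markers in 8 of 9 (1320 in stress, 1505 in control), while thalamus markers were higher in 4 of 6 (44.6 in stress, 35.3 in control), astrocyte markers in 8 of 9 (669 in stress, 584 in control) and microglia markers in 7 of 9 (73.4 in stress, 63.0 in control). Neuron markers were higher in 9 of 10 (1465 in stress, 1322 in control), but their median log2 difference of 0.09 lay close to the 0.08 of all genes. These counts take any difference from 0. Among markers at 1 FPKM, 1 of 9 astrocyte, 4 of 9 microglia, 4 of 6 thalamus and 0 of 10 neuron markers were 1.2-fold higher (all genes 12.9%). Lower by 1.2-fold were 5 of 5 choroid plexus, 3 of 4 ependymal, 4 of 9 oligodendrocyte, 1 of 9 microglia and 1 of 10 neuron markers (all genes 5.25%). No marker of these lists was at 0 in both tables. The part of these markers in the respiratory chain values was not tested. In such bulk tissue, fewer cells of a type and less RNA per cell cannot be told apart.

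The respiratory chain holds many short transcripts, and this sets limits on their FPKM. All transcripts were under 500 nt for 16 of the 92 genes, and 13 of these passed the filter. None of the 13 was past 1.2-fold, while 27.9% of all 136 such short genes were higher and 21.3% lower. The 136 are not a like set, with a median of 9.77 FPKM in stress against 51.0 for the 13. Their log2 differences ran from -7.59 (Snord22) to 10.3 (Snora30), with an SD of 2.35 over genes against 0.14 for the 13. The 2 shares are therefore no measure of how steady the 13 are. The deposited FPKM lay above the upper end of its own deposited interval for 13 of 14 member transcripts under 500 nt in the control table, for 34 of 41 from 500 to under 1000 nt, for 14 of 27 from 1000 to under 2000 nt and for 2 of 9 of at least 2000 nt. The FPKM divided by the middle of the interval had a median of 1.84 under 500 nt and reached 3.35 for Atp5k, the subunit e gene with a transcript of 292 nt. Under 1000 nt the ratio was 1.24 to 3.35 for the 45 member transcripts that overlap no other listed transcript, and its median was 1.00 for the 10 that do. Levels of short genes are thus not comparable with those of long ones: by the middle of the interval Atp5b (188 in control) came before Cox4i1 (182 in control).

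**Figure D2:**
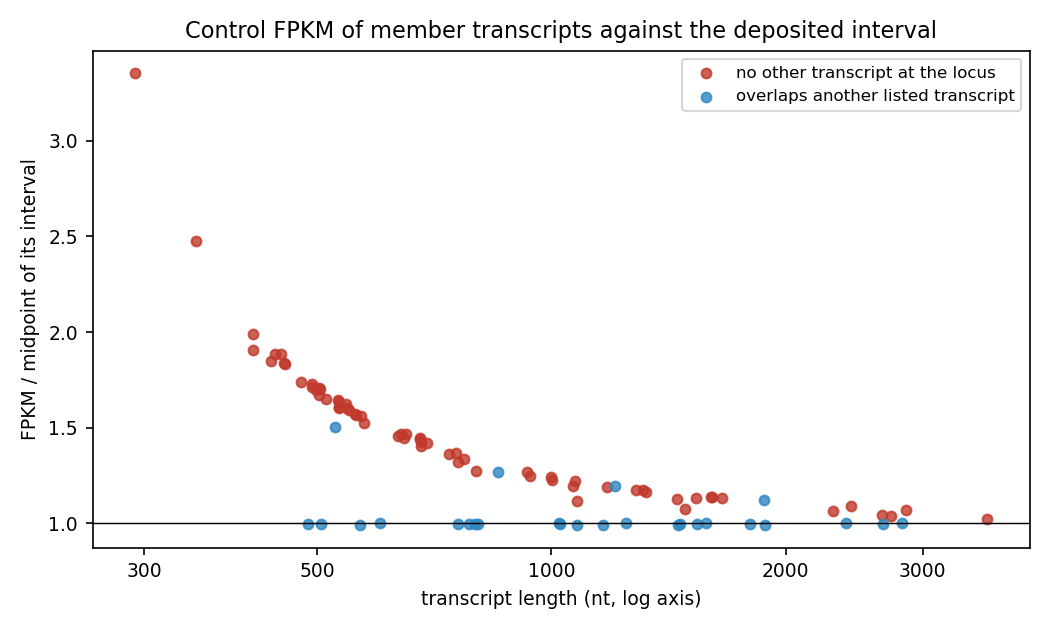
Each point is a member transcript of at least 1 FPKM in the control table, by its length in nt (x axis, log scale) and its FPKM divided by the middle of its deposited interval (y axis). Transcripts alone at their locus rise above 1 as they get shorter, up to 3.35, and most of those that overlap another transcript lie at 1.00.

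The ratio of FPKM to the middle of the interval was close between the tables for all of these genes but 1. Ndufa13 was the gene of the 83 whose ratio differed by more than 1.1 times between the tables, at 1.15 in stress and 1.00 in control. Its transcript overlaps Tssk6 on the other strand, which had 0.13 FPKM in stress and 0.16 in control. Over all 11071 genes the ratio differed in this way for 34, and 24 of these (70.6%) were past 1.2-fold in either direction, against 17.9% of the other genes. On the middle of the interval the log2 difference of Ndufa13 was 0.96, and that of Atp5o was 0.25, just under the threshold. Ndufs5 was listed at 5.02e-05 FPKM in stress and 5.68e-05 in control, while a transcript named BC002163 at the same place on the same strand had 30.0 in stress and 31.5 in control. The level of Ndufs5 cannot be read from these tables.

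5hmC was found in the bodies of many of the genes, but rarely in the same place in every library. The libraries held 15195, 27797 and 31654 peaks in stress and 17186, 27916 and 16327 in control. Chromosome X had between 4 and 12 peaks per library, so the X-linked genes Ndufa1, Ndufb11 and Cox7b, which had none, are left out of the counts. Of the 89 autosomal genes, 16, 27 and 35 had a peak in the stress libraries and 15, 32 and 18 in the control libraries. That is 26 ± 9.54 in stress and 21.7 ± 9.07 in control (SD, n = 3 each), and the groups overlapped. The share of their bases under peaks was 1.58%, 3.46% and 4.15% in stress and 1.48%, 2.61% and 1.85% in control. The same share over all genes was lower, and the ratio of the respiratory chain genes to it was 1.41, 1.54 and 1.63 in stress and 1.34, 1.34 and 1.73 in control. Short genes have higher coverage in general, so this ratio is not one at equal length. Beside all genes with at least 10 FPKM of like length, mean coverage was 4.73% against 4.01% under 5 kb, 4.52% against 4.44% from 5 to 10 kb, 2.95% against 3.22% from 10 to 20 kb and 1.55% against 2.72% from 20 to 50 kb. The stress libraries 2 and 3 and control library 2 had the most peaks and also the most genes with a peak.

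A peak in at least 1 library was found in 53 of the 89 genes (59.6%), against 55.1% of all autosomal genes, although the genes are short: their median body is 7.34 kb, against 14.4 kb for all genes. Among genes under 5 kb, 44.8% of 29 respiratory chain genes had a peak, against 17.8% of all genes and 30.8% of all genes with at least 10 FPKM. Between 5 and 10 kb it was 64.5% of 31, against 43.7% of all genes and 59.3% of those with at least 10 FPKM. From 20 to 50 kb it was 63.6% of 11 genes, below the 88.2% of abundant genes of that length. Few genes had a peak in every library. None was found for 36 of the 89 genes, 14 had one in 1 library, 12 in 2, 14 in 3, 4 in 4, 7 in 5 and 2 in all 6. The 2 genes with a peak in all 6 were Ndufs4 and the assembly factor Ndufaf5, a share of 2.25%, against 9.96% of all autosomal genes, most of which are longer. Within the class under 5 kb, 3.45% of the respiratory chain genes had peaks in at least 4 libraries, against 3.43% of all genes. From 5 to 10 kb it was 9.68%, against 9.27%. From 10 to 20 kb it was 20.0%, against 15.6%, and from 20 to 50 kb 36.4%, against 29.2%. These shares rest on 1, 3, 3 and 4 respiratory chain genes. Among all genes with at least 10 FPKM the shares were higher in each of these classes, at 6.21%, 15.3%, 24.8% and 40.9%. Merged over libraries there were 78 regions in these genes, of which 40 came from a single library (51.3%, against 56.9% of all 74450 regions) and none was shared by all 6, and 37 of the 78 touched an exon. Across the 89 genes, mean coverage and control FPKM had a Spearman rho of 0.12, given as a description over genes that share the same libraries.

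**Figure D3:**
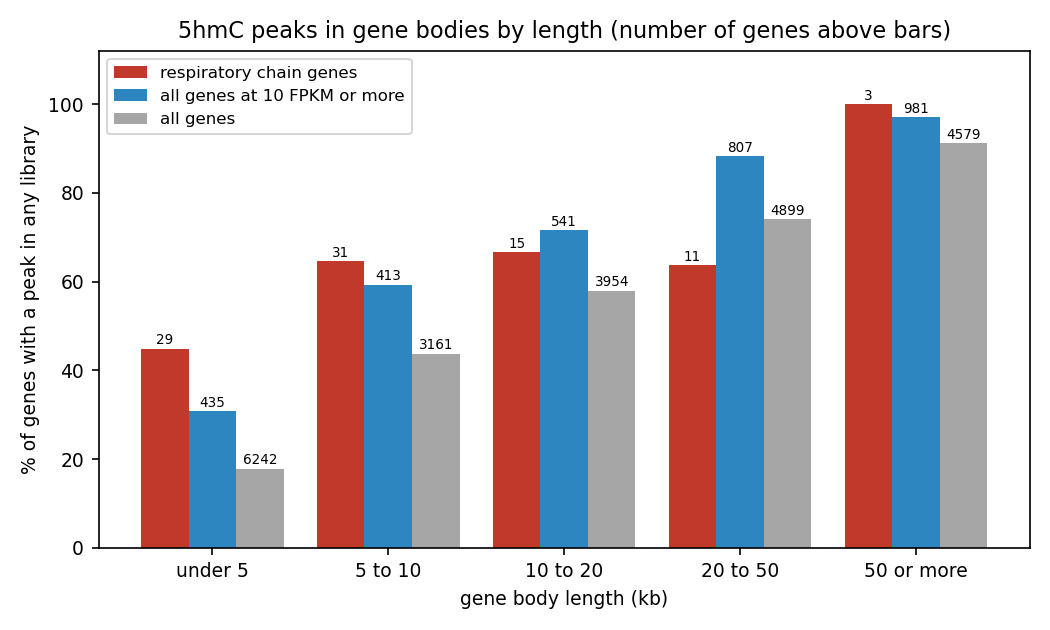
Bars show the percentage of genes with a 5hmC peak in any of the 6 libraries (y axis) by gene body length in kb (x axis), for respiratory chain genes, all autosomal genes with at least 10 FPKM and all autosomal genes, with the number of genes above each bar. Below 10 kb the respiratory chain genes lie above both other sets.

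The coverage of a gene body by peaks separated the groups for 4 of the 53 genes. Every stress library was above every control library for 2 of them, where the share of all genes with a peak was 7.49%. Every stress library was below every control library for the other 2, where it was 1.04%. With 3 libraries a group the exact two-sided permutation test cannot give less than p = 0.1, which all 4 genes have, and after Benjamini-Hochberg adjustment over all 12602 genes with a peak the value is 1 for each. None of the 4 therefore passes a test.

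Atp5d, the delta subunit of F1, had 39.1%, 64.9% and 59.0% of its body under peaks in stress and 22.7%, 30.7% and 0% in control. Its mean was 54.4% ± 13.5 in stress and 17.8% ± 15.9 in control (SD, n = 3 each), and the lowest stress value lay above the highest control value. The region joined over libraries (chr10:79606110-79608384, mm9) touches exons 2 to 4 of 4. Its RNA was alike, with 30.5 FPKM in stress and 30.5 in control. When each peak was cut to 500 bp around its centre the groups of Atp5d overlapped.

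Uqcrc1 had 10.7%, 12.4% and 17.4% in stress and 0% in all 3 control libraries. Its peaks form a region seen in all 3 stress libraries and in no control library (chr9:108845968-108848238, mm9). The region lies 7.31 to 9.58 kb downstream of the start and touches exons 4 to 6 of 13. Such a stress-only region was held by 2 of the 53 genes, where the share of all genes with a peak was 4.63%. The other was Ndufs4, with a region in an intron (chr13:115136232-115137387, mm9), 40.9 to 42.1 kb downstream of the start. Ndufs4 also had other peaks in every library, and its coverage of 1.87%, 3.12% and 3.33% in stress overlapped with 1.97%, 0.72% and 2.70% in control. In the higher-scoring 50% of each list neither stress-only region remained.

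Ndufa4 and Ndufb7 went the other way. Ndufa4, now known as a subunit of complex IV, had 0% in all 3 stress libraries and 18.6%, 22.5% and 13.0% in control. Its control-only region (chr6:11855261-11856887, mm9) lies 0.56 to 2.19 kb downstream of the start and touches exons 2 and 3 of 4. The scores of its peaks in control were 124, 110 and 69.3, where the lowest deposited score is 50. Ndufb7, an accessory subunit of complex I, had 0% in all 3 stress libraries and 15.3%, 14.4% and 16.4% in control. Its control-only region (chr8:86093958-86094781, mm9) touches exon 2 of 3, and its peak scores of 55.9, 51.6 and 60.8 lie near that minimum. A control-only region was held by 2 of the 53 genes, where the share of all genes with a peak was 1.24%. Their RNA was 60.5 FPKM in stress and 64.5 in control for Ndufa4, and 15.5 in stress and 16.1 in control for Ndufb7. With an equal number of top-scoring peaks taken from every library, Ndufa4 kept its control-only region and Ndufb7 did not.

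Separation is easier to meet with fewer libraries. With single libraries left out, the genes with higher coverage in stress numbered 3 to 14, against 2 with all libraries. The count was 14 without stress library 1, the sparsest of its group, and it was 5 without control library 2, and 4 without stress library 2 or without control library 3. The count of genes with lower coverage in stress was 2 to 4, with 4 without control library 2. Genes with a stress-only region were 7 without stress library 1 and 4 without stress library 2 or control library 2. The share of all genes was not counted with a library left out, so these counts have no background to be read against.

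The other genes with peaks in at least 4 libraries had groups that overlapped. Ndufc2, an accessory subunit of complex I, had 19.7%, 19.2% and 16.6% in stress and 18.9%, 12.3% and 0% in control. Cox6b1 had 9.97%, 11.1% and 13.8% in stress and 0%, 9.86% and 10.7% in control. Ndufa8 had 11.5%, 12.1% and 13.0% in stress and 0%, 11.5% and 18.6% in control. In these 3 genes every stress library had a peak and 1 control library had none. The same held for Uqcrc2, with 2.91%, 4.15% and 3.10% in stress and 0%, 3.53% and 3.81% in control, and for Ndufaf2, with 0.82%, 2.35% and 1.96% in stress and 1.31%, 1.08% and 0% in control. Cox4i2, barely transcribed here, had 9.42%, 11.6% and 10.8% in stress and 0%, 10.0% and 0% in control, and Ndufa9 had 3.36%, 3.49% and 3.70% in stress and 0%, 4.29% and 0% in control. In Ndufaf5 all 6 libraries had peaks, with 2.66%, 6.27% and 9.03% in stress and 2.38%, 3.50% and 2.65% in control. Ndufs1 had 0%, 2.84% and 2.65% in stress and 3.38%, 2.27% and 2.00% in control. Cox7a2l had a peak in each control library (10.1%, 9.50% and 10.1%) and in 1 stress library (0%, 0% and 10.3%). Atp5g2 had 0%, 17.2% and 30.4% in stress and 12.9%, 14.7% and 0% in control.

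**Figure D4:**
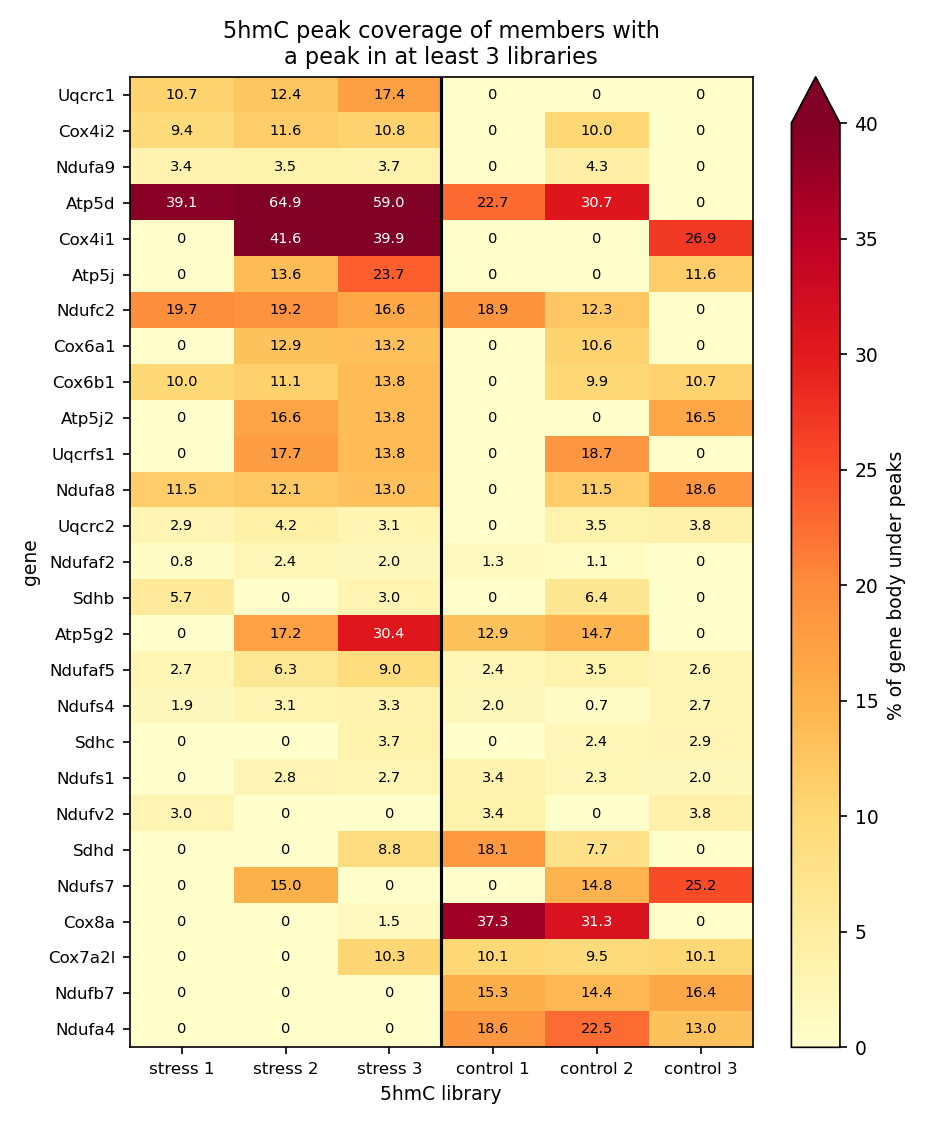
Rows are the 27 genes with a peak in at least 3 libraries and columns are the 3 stress and 3 control libraries. Colour and number give the percentage of the gene body under peaks. Uqcrc1 has values in the stress libraries only, and Ndufb7 and Ndufa4 in the control libraries only.

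High coverage also occurred without separation. Cox4i1, the gene with the highest FPKM but not the highest interval middle, had 0%, 41.6% and 39.9% in stress and 0%, 0% and 26.9% in control. Cox8a had 0%, 0% and 1.46% in stress and 37.3%, 31.3% and 0% in control. In both genes a library without any peak stood in each group. Ndufa13, the gene with the highest RNA difference, had 0%, 16.3% and 17.4% in stress and 0% in each control library. For Atp5g3, the lowest in RNA, the single region came from 1 stress library.

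Just downstream of the start of transcription 5hmC was sparse. In the first 500 bases downstream, 0.38% ± 0.65 of the bases of the 89 genes lay under peaks in stress and 0.13% ± 0.22 in control (SD, n = 3 each). Over all genes with at least 10 FPKM it was 0.45% in stress and 0.28% in control. In the 500 bases upstream the respiratory chain genes had more, 1.80% ± 1.05 in stress and 2.04% ± 0.94 in control. Over all genes with at least 10 FPKM that stretch had 0.89% in stress and 0.69% in control. Between 2 and 2.5 kb downstream the respiratory chain genes had 8.49% ± 3.69 in stress and 5.72% ± 3.71 in control, where abundant genes had 5.86% in stress and 4.14% in control. At that distance the groups overlapped. From 2.5 to 3 kb they did not, with 8.94% ± 3.88 (lowest library 4.97%) in stress and 3.27% ± 1.35 (highest library 4.57%) in control. Of the 40 bins within 10 kb of the start, every stress library lay above every control library in 6 and below in none. The 6 include the bins centred 7250 and 6750 bases upstream, and at 7250 bases the lowest stress library had only 1.12%. Over all genes with at least 10 FPKM it was 0 of the 40. The counts are not comparable, because the first averages over 89 genes and the second over 3177. Neighbouring bins share peaks, and the bins were not tested. A peak between 250 bases before and 50 after the start was found in 4 of the 89 genes (4.49%). They were Ndufb2 in 6 libraries, Ndufb8 in 4, and Cox6c and the testis form Cox8c in 1 library each. The share was 5.14% among all autosomal genes and 3.18% among those with at least 10 FPKM. Within 1 kb of the start a peak was found in 18 of the 89 genes (20.2%), against 16.2% and 15.9%.

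**Figure D5:**
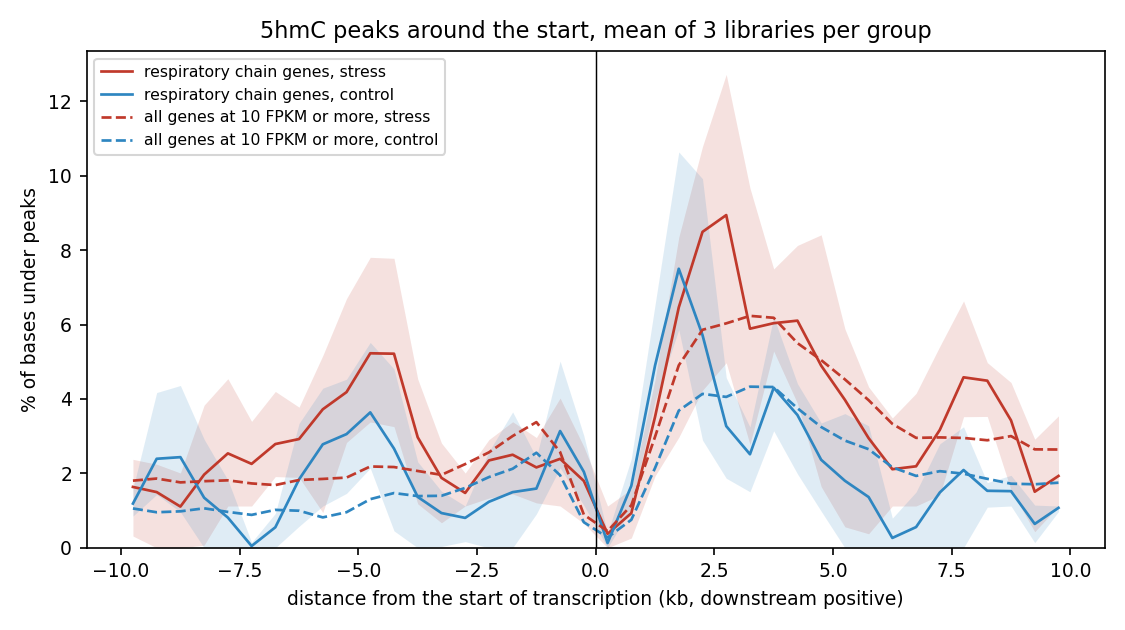
The x axis is the distance from the start of transcription in kb and the y axis the percentage of bases under 5hmC peaks in 500-base bins. Solid lines are the mean of 3 stress and 3 control libraries over the 89 respiratory chain genes with the range over libraries shaded, dashed lines are all genes with at least 10 FPKM, and all lines dip below 0.5% just after the start.

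At Ndufb2, an accessory subunit of complex I, the peak lies wholly upstream of the gene. It ended 210, 17 and 150 bases before the start in the stress libraries and 128, 32 and 126 bases before it in the control libraries, and its lengths were 916, 1258 and 1121 bases in stress and 991, 1102 and 1021 in control. This is a peak found in all 6 libraries, and its ends overlapped between the groups. The RNA of Ndufb2 was 50.7 FPKM in stress and 49.8 in control.

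Promoter sequences were matched for 76 of the 92 genes in RefSeq (GRCm38.p6), giving 82 windows of 300 bases, from 250 before to 50 after the start. These windows were searched on both strands for motifs of factors known to act on respiratory genes. The NRF1 motif was present in 24.4% of the 82 windows, against 4.60% of 32851 windows of all genes. The GABPA motif CCGGAAG was present in 20.7%, against 8.86%, the YY1 motif AAGATGG in 15.9%, against 6.34%, and the ERRalpha motif AAGGTCA in 9.76%, against 4.72%. The CCAAT box was present in 42.7%, against 37.4%, and the TATA box TATAAA in 9.76%, against 13.6%. The windows were richer in CpG, with a median observed over expected ratio of 0.83, against 0.38 for all. The part of this composition in the motif shares was not tested. A match is a description of letters and not a bound site.

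The 250 bases before the start are shown for 5 genes, with matches to these motifs in capitals. Ndufb2 is shown because its upstream peak came within 250 bases of the mm9 start in every library. Its body has 6889 bases in mm9 and 7279 in RefSeq. Whether the peak reaches the bases shown was not established. The others give 1 gene each of complexes I, II and IV and of ATP synthase that holds the NRF1 motif. All are written 5′ to 3′ on the strand of the gene. The positions are chr6:39592315-39592564 on the plus strand for Ndufb2, and on the minus strand chr13:73328483-73328732 for Ndufs6, chr9:50603850-50604099 for Sdhd, chr5:115348959-115349208 for Cox6a1 and chr11:115419920-115420169 for Atp5h. These are GRCm38.p6 coordinates, while the peaks are on mm9, and the 2 were not converted.
Ndufb2: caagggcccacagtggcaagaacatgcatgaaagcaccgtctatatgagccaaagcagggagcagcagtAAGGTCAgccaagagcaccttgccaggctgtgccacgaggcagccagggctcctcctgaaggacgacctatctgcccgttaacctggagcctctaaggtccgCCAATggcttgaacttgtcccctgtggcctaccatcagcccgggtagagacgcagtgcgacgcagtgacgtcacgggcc
Ndufs6: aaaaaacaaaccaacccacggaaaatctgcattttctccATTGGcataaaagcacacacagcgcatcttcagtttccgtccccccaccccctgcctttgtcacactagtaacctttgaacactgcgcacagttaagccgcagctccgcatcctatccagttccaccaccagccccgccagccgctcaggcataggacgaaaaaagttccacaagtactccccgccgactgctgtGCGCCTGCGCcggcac
Sdhd: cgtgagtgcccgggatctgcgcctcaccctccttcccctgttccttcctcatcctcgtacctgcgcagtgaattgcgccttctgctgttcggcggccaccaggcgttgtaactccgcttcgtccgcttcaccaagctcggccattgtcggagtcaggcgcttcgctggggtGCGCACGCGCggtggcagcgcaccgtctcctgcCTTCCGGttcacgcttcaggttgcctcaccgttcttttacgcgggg
Cox6a1: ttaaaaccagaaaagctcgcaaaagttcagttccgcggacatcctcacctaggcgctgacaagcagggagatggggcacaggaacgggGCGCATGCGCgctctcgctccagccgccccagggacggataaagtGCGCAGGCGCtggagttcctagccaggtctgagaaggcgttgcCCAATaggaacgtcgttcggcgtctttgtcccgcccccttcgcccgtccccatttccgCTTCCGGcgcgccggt
Atp5h: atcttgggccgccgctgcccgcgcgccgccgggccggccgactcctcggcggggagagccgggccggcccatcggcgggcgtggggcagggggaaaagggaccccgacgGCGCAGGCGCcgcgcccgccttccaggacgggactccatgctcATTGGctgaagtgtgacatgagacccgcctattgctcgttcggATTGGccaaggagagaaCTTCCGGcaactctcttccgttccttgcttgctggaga

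In the Ndufb2 sequence the capitals are 1 ERRalpha motif and 1 CCAAT box. Ndufs6 has 1 CCAAT box, read on the other strand, and 1 NRF1 motif close to the start. Sdhd has 1 NRF1 and 1 GABPA motif, Cox6a1 has 2 NRF1 motifs, 1 CCAAT box and 1 GABPA motif, and Atp5h has 1 NRF1 motif, 2 CCAAT boxes and 1 GABPA motif. The RNA of Cox6a1 was 147 FPKM in stress and 124 in control, the widest difference of the 5. The others were closer, with 30.9 FPKM in stress and 32.2 in control for Ndufs6, 31.0 in stress and 31.7 in control for Sdhd, and 29.6 in stress and 28.7 in control for Atp5h. The factors' own RNA was 2.31 FPKM in stress and 1.89 in control for Nrf1, and 4.57 in stress and 4.26 in control for Gabpa.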

How the data were processed

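The authors deposited 1 peak list per 5hmC library, with a score per peak that was used only within a list. The build was mm9 and the aligner Bowtie 0.12.9, and edgeR is named with no role, per the submitters' processing notes. Peaks carry the names that MACS writes; the version of MACS is not stated here. For RNA the authors deposited 1 Cufflinks table per group, covering 33262 transcripts by FPKM and its interval. Named tools are Cufflinks 2.1.1, Cuffdiff 2.1.1 and TopHat 1.0.12, per the submitters' processing notes. The tables hold no counts, so depth is given only as coverage per FPKM, which was 9.22 in stress and 8.14 in control.

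FPKM were summed over isoforms. Differences are log2((stress + 1)/(control + 1)) where the mean reached 1 FPKM, and a gene is called at 1.2-fold. Gene bodies came from the tables (mm9). Peaks sharing 1 bp or more were joined to regions, and a gene was called where every library of a group lay above every library of the other. Peaks on mitochondrial DNA were left out. Groups of 3 libraries were compared with exact permutation over 20 assignments. Nothing says how the numbers 1 to 3 of the groups belong together, and p-values measure only the spread between pools.

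The genes, lists and tests were chosen with earlier results of these data known. Genes named with values were 12 fixed genes, of which 1 is not reported here, the special forms, the 6 most abundant, the 8 highest and 8 lowest in RNA difference, those with peaks in at least 4 libraries, the 5 with the highest coverage, those with a region in 1 group only or with separated groups, and the extremes of each other list. Genes named for a promoter, a start-site peak or their isoforms, and the shared subunit c genes, were chosen after their values were seen. Alternatives were other pseudocounts, filters, scalings, isoforms and fold thresholds for RNA, and other scores, peak numbers, gene limits and overlaps for 5hmC, and each library was left out in turn. Scripts were tested on simulated data. Python 3.11.15, pandas 2.3.3, numpy 2.4.6 and scipy 1.17.1 were used.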

Additional observations from a re-analysis of the deposited data

How the results depend on the processing

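The RNA count of 6 higher genes was 11 with no filter on low values (12.0%, against 7.60% of all genes), 2 once the median of all genes was set to 0, and 1 at 1.5-fold. The count of 2 lower genes was 4 with a pseudocount of 0.1 (4.82%, against 7.86% of all genes) and 10 with that centring (12.0%, against 9.18%). At 1.5-fold it was 0, against 0.894% of all genes. The median of 0.03 became -0.048 with that centring. With the middle of the deposited interval in place of FPKM, chosen after seeing the data, 5 genes were higher and 2 lower. These were 6.02% and 2.41%, against 12.2% and 4.93% of all genes. The mean number of genes with a peak was 16.3 in stress and 12.3 in control in the higher-scoring 50% of each list, and 43.7 in stress and 34.3 in control with 5 kb added to both sides. With single libraries left out it was 21.5 to 31 in stress and 16.5 to 25 in control. Genes with every stress library above every control library numbered 1 in the higher-scoring 50%, 7 with extended bodies, 1 with 500 bp around peak centres and 3 to 14 with a library left out. Genes with every stress library below numbered 1 in the higher-scoring 50% and 1 with equal numbers of peaks, and 2 to 4 with a library left out. Stress-only regions were held by 0 genes in the higher-scoring 50%, 1 with equal numbers and 2 to 7 with a library left out, and control-only regions by 1, 1 and 2 to 3 genes. For 5hmC the share of all genes was not counted under these settings, so these counts have no background. The cause of these shifts was not tested.

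With the replicate number as a block, 6 genes had all 3 same-numbered differences above 0 and 2 had them below, and the smallest p is then 0.25. The share of all genes was not counted for this block either. Same-numbered libraries deviated together with r = 0.12, 0.01 and -0.04 over all genes with a peak. Libraries of different number had r from -0.14 to 0.11. Whether the numbers pair the libraries cannot be told from these values. No paired analysis was possible for RNA because there is 1 table per group. Of the differences of single named genes under these alternatives, 150 stayed on their side of the threshold, 9 moved past it and 13 lost it. Many of the 150 could not move. All 25 named genes passed the filter, so dropping it changed none of their values. A gene with 1 transcript has the same value by its most abundant isoform, and a gene short of 1.2-fold cannot reach 1.5-fold. No difference past the threshold changed sign, while under centring 4 of the 25 named genes, all short of it, did: Cox4i1 to -0.057, Atp5a1 to -0.020, Ndufs1 to -0.019 and Sdha to -0.0075. The depth of RNA is unknown, and peak lists cannot show 5hmC below the score minimum.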
